A study of Caenorhabditis elegans with 16 samples.

Results

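The 9 genes described here encode the subunits of the AMP-activated protein kinase (AMPK) of *C. elegans*, out of 25478 genes that the arrays measured. They are the alpha subunit genes *aak-1* and *aak-2*, the beta subunit genes *aakb-1* and *aakb-2*, and the gamma subunit genes *aakg-1*, *aakg-2*, *aakg-3*, *aakg-4* and *aakg-5*. They were chosen by name, as every probe set that the platform annotation assigns to one of these genes, and 10 probe sets were found, since *aakg-1* has a pair of them. All 9 genes were measured on all 16 arrays. In the assembly WBcel235, *aak-1*, *aakb-2* and *aakg-1* lie on chromosome III, *aakg-5* lies on chromosome II, and the other members lie on the X chromosome.

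RNA of whole worms was measured on 4 arrays for each of 4 groups. The wild-type strain N2 and the mutant *alfa-1(ok3062)*, which carries a deletion allele of the worm orthologue of human *C9orf72* and no other labelled allele, were each sampled well-fed and starved. The starved worms were held for 6 hr without food in M9, a salt buffer, and the labels give the same 6 hr with food for the controls, whereas the methods describe controls that were frozen at once. By the methods, food cannot be told apart from 6 hr of age, or from 6 hr of mixing in M9 at room temperature. The labels give the stage as L3 and the methods as L3/L4, both before adulthood. The methods describe collected worms that were split equally between tubes, before the starvation. The mutant is 1 allele in 1 strain, and whether the 4 samples of each group were grown apart is not stated, so that p-values reflect only how far these samples scatter, possibly for technical reasons. The label was borne out by *alfa-1* itself, with log2 values in well-fed worms of 9.25 ± 0.118 (N2, SD, n = 4) and 7.60 ± 0.0242 (mutant, SD, n = 4), although no source used here says which part of the gene its probes cover.

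AMPK is a kinase of 3 subunits that senses the energy charge of the cell. The alpha subunit carries the kinase domain, the beta subunit holds the complex together and in mammals binds glycogen, and the gamma subunit binds AMP, ADP and ATP, so that the kinase becomes active when AMP rises and ATP falls. The upstream kinase LKB1, PAR-4 in the worm, phosphorylates the alpha subunit, and active AMPK turns on pathways that yield ATP and turns off those that use it. In *C. elegans*, *aak-2* is known for its part in long life under low energy, in the dauer larva and in the survival of starvation. The values below are log2 expression values per probe set, in which a difference of 1 is a doubling, and a gene was called when its adjusted p from limma, corrected over all 25478 genes, was under 0.05. Levels of different probe sets cannot be set against each other, so each gene is compared only with itself across arrays.

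Between well-fed and starved N2 the messenger RNA of 6 of the 9 subunit genes differed, and these 6 lay in all 3 subunit classes. The gamma gene *aakg-4* rose by 3.23-fold, *aakg-5*, *aakb-2*, *aakg-3* and *aak-1* rose by between 1.27-fold and 1.38-fold, and *aakg-2* was 1.68-fold lower. The other alpha gene, *aak-2*, the other beta gene, *aakb-1*, and *aakg-1* in its brighter probe set did not pass. Of all genes tested, 22.4% were called in this comparison, 10.8% higher and 11.6% lower. The arrays of these 6 genes did not overlap between the groups, which held for 24.4% of all genes. In the mutant 3 of the 9 subunit genes were called, *aakg-4* and *aakg-3* higher, beside 10.9% of all genes, and *aakg-2* lower, beside 14.3%. By this count, which moved with the processing, the share of subunits called there was not far from that of all genes. There 7 of the 9 had arrays that did not overlap, beside 27.4% of all genes. The second probe set of *aakg-1*, left out of these counts, passed as higher in N2 (adjusted p = 0.00185 from limma) and in the mutant (adjusted p = 0.0386 from limma). The median log2 change of the 9 members was 0.35 in N2, against 0.01 over all genes, and 0.22 in the mutant, against -0.02 over all genes. In whole worms a change in RNA per cell and a change in the share of a cell type cannot be told apart.

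**Figure D1:**
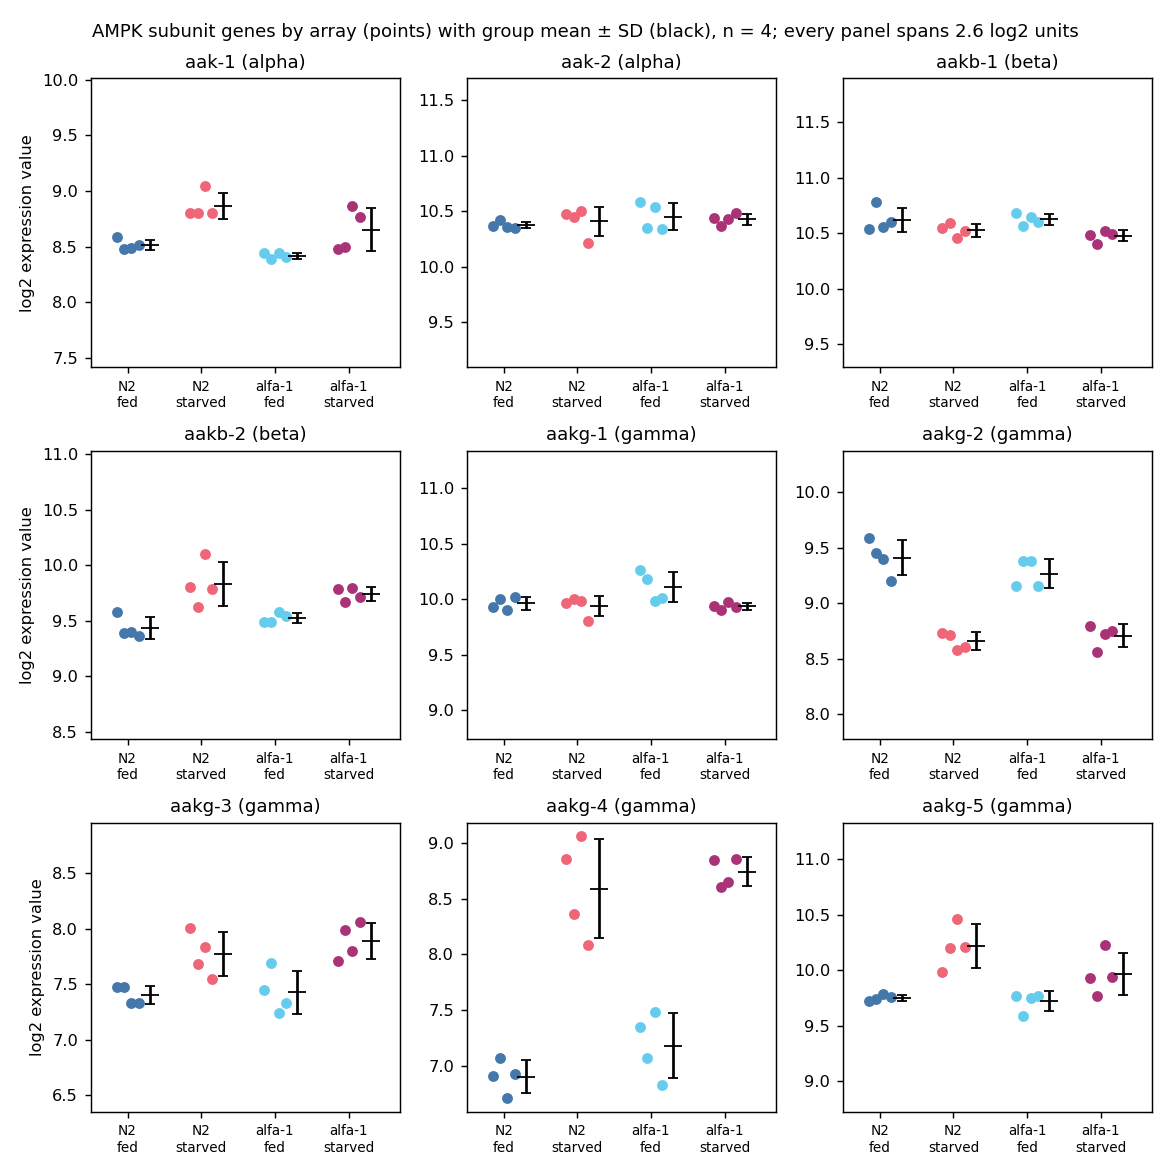
Log2 expression value (vertical axis, 2.6 log2 units in every panel) of the 9 AMPK subunit genes on each of the 16 arrays, by group (horizontal axis); points are arrays and black bars the group mean ± SD (n = 4). The starved arrays of *aakg-4* sit between 8.09 and 9.06 and the well-fed ones between 6.71 and 7.48, whereas the groups of *aak-2* lie on top of each other.

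Of the alpha subunit genes, which carry the catalytic activity, *aak-1* rose on starvation of N2 and *aak-2* did not pass. The log2 value of *aak-1* was 8.59, 8.48, 8.49 and 8.51 on the 4 arrays of well-fed N2 and 8.80, 8.80, 9.04 and 8.81 in starved N2. In *alfa-1(ok3062)* it was 8.44, 8.38, 8.44 and 8.40 well-fed and 8.48, 8.499, 8.87 and 8.76 starved. Every starved array was above every well-fed array of its own strain, and the starved mutant arrays fell into a lower and a higher pair. The log2 change was 0.35 in N2 (SE 0.0902, adjusted p = 0.0114 from limma) and 0.23 in the mutant (SE 0.0902, adjusted p = 0.0691 from limma), and the second did not pass. Averaged over both strains *aak-1* rose by 0.29 (SE 0.0638, adjusted p = 0.00195 from limma), and 37.6% of all genes were called in that averaged comparison, 18.3% higher and 19.3% lower.

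The other catalytic gene, *aak-2*, was at 10.37, 10.42, 10.36 and 10.35 in well-fed N2 and at 10.48, 10.45, 10.50 and 10.21 in starved N2. Its values in the mutant were 10.58, 10.35, 10.54 and 10.34 well-fed and 10.44, 10.36, 10.43 and 10.48 starved. All 4 groups overlapped, and no neighbouring groups in the order of the means differed beyond their spread. The change on starvation was 0.03 in N2 (95% interval -0.14 to 0.20) and -0.02 in the mutant (95% interval -0.19 to 0.15), neither of which passed, so that a change of the size seen in *aak-1* in N2 lies outside both intervals. The genes of this pair differed in their response. The starvation change of *aak-1*, averaged over the strains, exceeded that of *aak-2* by 0.29 (95% interval 0.15 to 0.42, adjusted p = 0.000891 in an exact permutation test, two-sided, food labels permuted within strain and corrected over 12 pairs of subunits).

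The beta subunit genes also parted. For *aakb-2* the arrays read 9.58, 9.39, 9.40 and 9.36 in well-fed N2 and 9.81, 9.63, 10.10 and 9.79 in starved N2. In the mutant they read 9.49, 9.49, 9.58 and 9.55 well-fed and 9.79, 9.67, 9.79 and 9.72 starved. Starved arrays were higher with no overlap in either strain, and 1 starved N2 array, the third, stood above the rest. The rise was 0.40 in N2 (SE 0.0903, adjusted p = 0.00496 from limma) and 0.22 in the mutant (SE 0.0903, adjusted p = 0.0916 from limma), which did not pass, and 0.31 over both strains (adjusted p = 0.00129 from limma).

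The other beta gene, *aakb-1*, was at 10.54, 10.78, 10.56 and 10.60 in well-fed N2 and at 10.55, 10.59, 10.45 and 10.52 in starved N2. In the mutant the values were 10.68, 10.56, 10.65 and 10.60 well-fed and 10.49, 10.41, 10.52 and 10.49 starved. The groups overlapped in N2, and in the mutant every starved array lay below every well-fed one. The differences were -0.09 in N2 (95% interval -0.24 to 0.06) and -0.15 in the mutant (95% interval -0.30 to 0.0009), and neither passed. Over both strains the difference was -0.12 (adjusted p = 0.0698 from limma, p = 0.00367 in an exact permutation test over samples), short of the threshold. This difference passed in limma with cyclic loess normalization (adjusted p = 0.0338), an intensity trend (0.0264) and a filter on dim genes (0.0301). The change of *aakb-1* was lower than that of *aakb-2* by a log2 difference of -0.43 (95% interval -0.60 to -0.25, adjusted p = 0.000891 in the exact permutation test over 12 pairs).

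**Figure D2:**
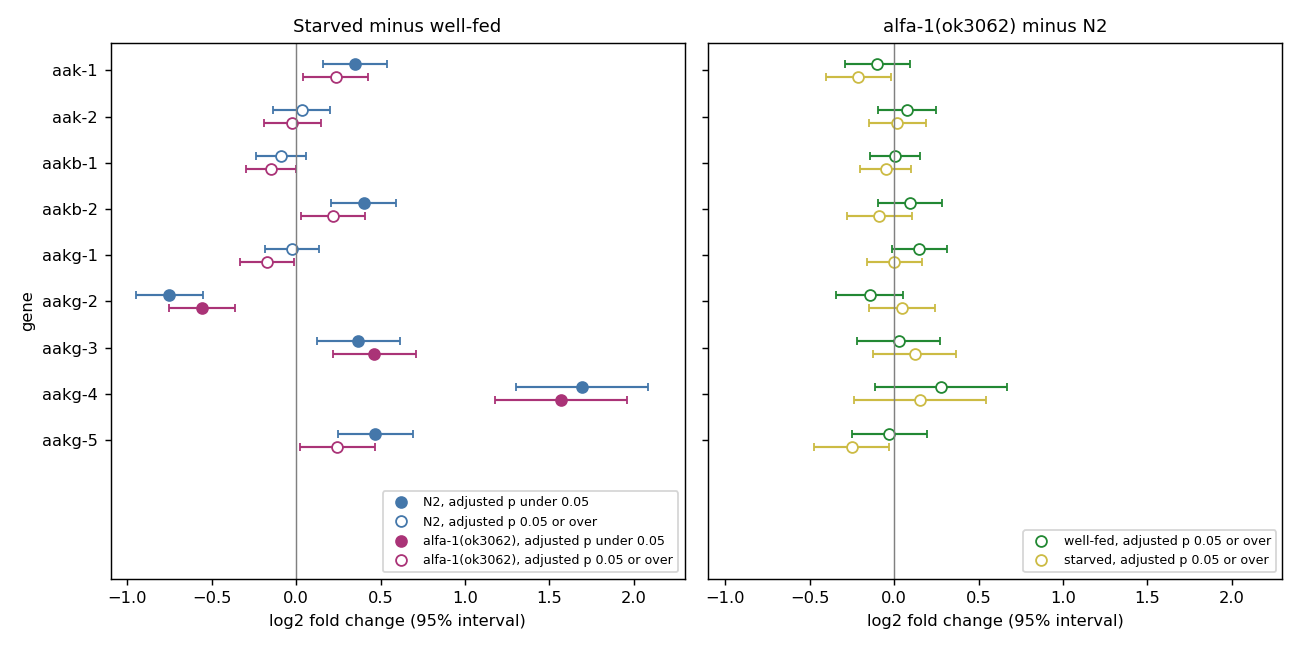
Log2 fold change (horizontal axis, with 95% intervals) of each of the 9 subunit genes (vertical axis), starved minus well-fed in each strain on the left and *alfa-1(ok3062)* minus N2 in each food condition on the right; filled symbols passed at an adjusted p under 0.05. On the left 6 genes passed in N2 and 3 in the mutant, and on the right 0 passed. *aakg-1* is shown by its brighter probe set only.

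The gamma genes held both the highest and the lowest change among the 9 genes. *aakg-4* is known as a gene that the FOXO transcription factor DAF-16 regulates directly. Its log2 value was 6.90, 7.07, 6.71 and 6.92 in well-fed N2 and 8.86, 8.36, 9.06 and 8.09 in starved N2. In *alfa-1(ok3062)* it was 7.34, 7.07, 7.48 and 6.82 well-fed and 8.86, 8.61, 8.65 and 8.86 starved. All 8 starved arrays lay above all 8 well-fed arrays, and the starved N2 arrays were spread the most, with an SD of 0.448 against 0.132 in the starved mutant. The rise was 1.69 in N2 (SE 0.185, adjusted p = 1.85e-05 from limma) and 1.57 in the mutant (SE 0.185, adjusted p = 3.37e-05 from limma), which are 3.23-fold and 2.96-fold. By p-value the gene ranked 141st of 25478 in N2 and 216th in the mutant.

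The opposite change was that of *aakg-2*. It was at 9.59, 9.46, 9.40 and 9.20 in well-fed N2 and at 8.74, 8.71, 8.58 and 8.61 in starved N2. The mutant gave 9.15, 9.38, 9.38 and 9.15 well-fed and 8.80, 8.56, 8.72 and 8.75 starved. Starved arrays of both strains lay below all well-fed arrays of both strains. The log2 change was -0.75 in N2 (SE 0.0928, adjusted p = 5.08e-05 from limma) and -0.56 in the mutant (SE 0.0928, adjusted p = 0.000516 from limma), a level 1.68-fold and 1.47-fold lower.

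The remaining 3 gamma genes changed less. *aakg-3* was at 7.47, 7.47, 7.33 and 7.33 in well-fed N2, at 8.01, 7.69, 7.84 and 7.54 in starved N2, at 7.45, 7.69, 7.24 and 7.33 in the well-fed mutant and at 7.71, 7.99, 7.80 and 8.06 in the starved mutant. In each strain the starved arrays were above the well-fed ones with no overlap, and the lowest starved array lay within 0.1 of the highest well-fed one. It rose by 0.37 in N2 (SE 0.116, adjusted p = 0.0321 from limma) and by 0.46 in the mutant (SE 0.116, adjusted p = 0.00849 from limma). The call in N2 was lost when any of 4 arrays was left out (well-fed N2 replicates 3 and 4, starved N2 replicates 1 and 3), with adjusted p between 0.0715 and 0.102.

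*aakg-5* was at 9.72, 9.74, 9.78 and 9.75 in well-fed N2 and at 9.98, 10.20, 10.46 and 10.21 in starved N2. In the mutant it was at 9.77, 9.59, 9.75 and 9.77 well-fed and at 9.93, 9.76, 10.22 and 9.94 starved. The groups were apart in N2, whereas the lowest starved mutant array lay among the well-fed ones. The rise was 0.47 in N2 (SE 0.104, adjusted p = 0.00454 from limma) and 0.24 in the mutant (95% interval 0.02 to 0.46, adjusted p = 0.103 from limma), where it did not pass. Over both strains it was 0.36 (adjusted p = 0.00131 from limma).

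The result for *aakg-1* differed between its probe sets. The first, brighter over the arrays and the one used for the counts above, read 9.93, 9.997, 9.90 and 10.02 in well-fed N2, 9.96, 9.999, 9.98 and 9.81 in starved N2, 10.27, 10.18, 9.98 and 10.01 in the well-fed mutant and 9.94, 9.90, 9.98 and 9.93 in the starved mutant. The groups overlapped in N2 and did not in the mutant, where the starved arrays were lower. In the mutant the highest starved array, at 9.976, lay only just below the lowest well-fed one, at 9.978. The change was -0.03 in N2 (95% interval -0.19 to 0.14) and -0.17 in the mutant (95% interval -0.34 to -0.01, adjusted p = 0.113 from limma), and neither passed. The second probe set read 9.44, 9.39, 9.48 and 9.50 in well-fed N2, 9.83, 9.84, 10.10 and 9.77 in starved N2, 9.53, 9.53, 9.52 and 9.45 in the well-fed mutant and 9.87, 9.60, 9.88 and 9.69 in the starved mutant. On it every starved array was above every well-fed array.

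This second probe set rose by 0.43 in N2 (adjusted p = 0.00185 from limma) and by 0.25 in the mutant (adjusted p = 0.0386 from limma). Over both strains it rose by 0.34 (adjusted p = 0.000327 from limma), so that it passed in each of these comparisons. Its change averaged over the strains exceeded that of the first by 0.44 (SE 0.0545, p = 0.000408 in an exact permutation test, two-sided, the smallest that test can give), a comparison chosen after the values were seen. The gene spans 36738 bases and has 7 annotated RefSeq transcripts in WBcel235. The first probe set carries a gene identifier that is not in the RefSeq table used, and the second carries the identifier that is. No source used here says which exons each probe set covers, so no direction is given for *aakg-1* as a gene.

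**Figure D3:**
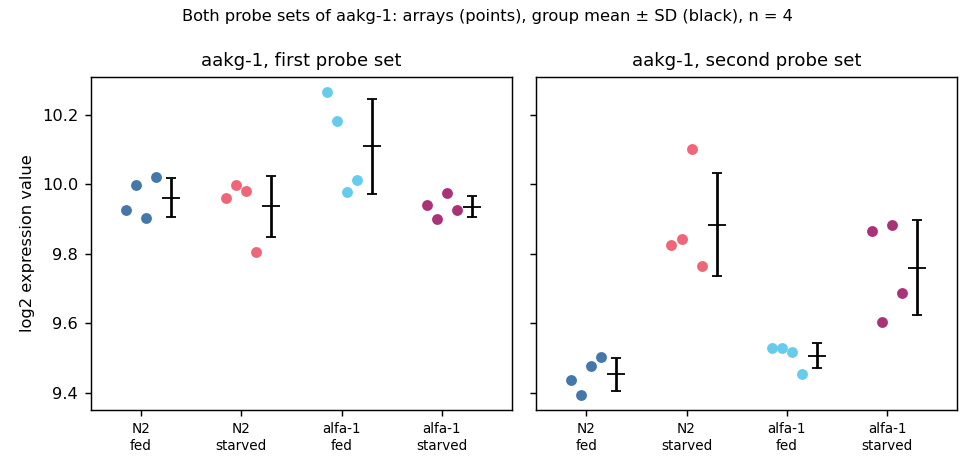
Log2 expression value (vertical axis, shared) of *aakg-1* by group (horizontal axis) on its first and second probe sets; points are arrays and black bars the group mean ± SD (n = 4). On the second probe set the 8 starved arrays, from 9.60 to 10.10, lie above the 8 well-fed arrays, from 9.39 to 9.53, and on the first they do not.

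Whether subunits of one class changed by different amounts was tested directly in 12 pairs, by the difference of their log2 values on each array. Of the 12 pairs, 11 differed in their mean starvation change. The widest gap was between *aakg-2* and *aakg-4*, at -2.28 (95% interval -2.60 to -1.97), and *aakg-4* also exceeded *aakg-5* by 1.27 and *aakg-3* by 1.21. The adjusted p of each of these 3 pairs was 0.000544 in the exact permutation test. *aakg-3* and *aakg-5* differed by 0.06 (95% interval -0.23 to 0.35, p = 0.657 in the exact permutation test), which leaves room for a difference of up to 0.35. With the second probe set of *aakg-1* in place of the first, 9 of the 12 pairs differed, and the pairs of *aakg-1* with *aakg-3* (adjusted p = 0.599) and with *aakg-5* (adjusted p = 0.787) were the ones lost in that exact permutation test. The members were chosen by name and the pairs are not independent, since genes recur in them.

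**Figure D4:**
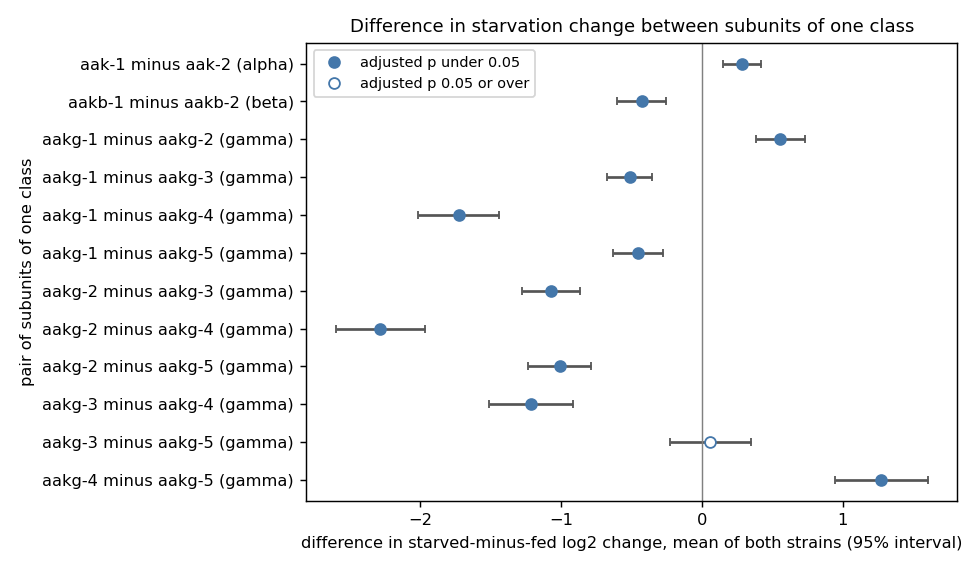
Difference between the starvation changes of the subunits of one class (horizontal axis, log2, mean of both strains, with 95% intervals) for the 12 pairs (vertical axis); filled symbols passed at an adjusted p under 0.05 in the exact permutation test. The interval of the pair *aakg-3* and *aakg-5* crosses 0, from -0.23 to 0.35, and those of the other 11 pairs do not.

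Loss of *alfa-1* was not followed by a called change in any of the 9 genes. In well-fed worms 0 of 9 were called by limma, beside 0.0903% of all genes, and 0 of 9 had an unadjusted p under 0.05, beside 4.72% of all genes. The differences ran from -0.15 for *aakg-2* to 0.28 for *aakg-4* (95% interval -0.11 to 0.67), and with each array left out in turn these were -0.21 to -0.09 and 0.18 to 0.40. In starved worms 0 of 9 were called, beside 0.0942% of all genes, and 2 of 9 had an unadjusted p under 0.05, beside 12.1% of all genes. These were *aak-1*, lower in the mutant by a log2 difference of -0.21 (95% interval -0.40 to -0.02, adjusted p = 0.369 from limma), and *aakg-5*, at -0.25 (95% interval -0.47 to -0.03, adjusted p = 0.365 from limma). Before starvation every mutant array of *aak-1* was also below every N2 array, by -0.10 in the mean (95% interval -0.29 to 0.09, p = 0.0286 in an exact permutation test of 4 against 4, the smallest it can give). It was the only member whose arrays did not overlap between the strains, beside 4.25% of all genes in well-fed worms, and in starved worms there were 0, beside 4.24%.

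Averaged over both food conditions, 0 of 9 members were called between the strains, beside 0.271% of all genes. *aak-1* was at -0.16 (95% interval -0.29 to -0.02, adjusted p = 0.499 from limma over all genes, p = 0.00776 in an exact permutation test for this 1 gene). The interaction, which asks whether the starvation change differed between the strains, was called by limma for 0 of 9 members and for 0 genes in all (0%). At an unadjusted p under 0.05 it held 0 of 9 members, beside 6.43% of all genes. The interactions ran from -0.22 for *aakg-5* (95% interval -0.54 to 0.09) to 0.19 for *aakg-2* (95% interval -0.09 to 0.47), and with each array left out in turn these were -0.31 to -0.14 and 0.13 to 0.26. A gene called in N2 and not in the mutant, such as *aak-1*, *aakb-2* or *aakg-5*, was therefore not shown to respond differently in the 2 strains. Among the 12 pairs of subunits 0 differed in their mean strain effect, and the lowest p was that of *aak-1* against *aak-2*, at -0.20 (95% interval -0.34 to -0.07, adjusted p = 0.0784 in the exact permutation test). The pair passed when starved N2 replicate 1 (adjusted p = 0.0473) or starved mutant replicate 3 (adjusted p = 0.0098) was left out of that exact permutation test.

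The order of the 4 group means followed food in the genes that were called. *aakg-4* and *aakb-2* had both well-fed groups at the low end and both starved groups at the high end, as did *aakg-3*, and *aakg-2* had them the other way round. In *aakg-4* the step between the higher well-fed group and the lower starved group was 1.41, and the arrays did not overlap there. In *aak-1* and *aakg-5* the starved mutant lay between well-fed N2 and starved N2, overlapping both.

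Genes of the pathway around AMPK were read from 4 lists of 34 genes, all of them measured. In N2 12 of the 34 were called on starvation, 7 higher and 5 lower, beside 22.4% of all genes (10.8% higher and 11.6% lower). In the mutant 12 were called, 8 higher and 4 lower, beside 10.9% and 14.3% of all genes. Between the strains limma called 0 of 34, starved or not, beside 0.0942% of all genes in starved and 0.0903% in well-fed worms. The median log2 change of the 34 genes was 0.07 in N2 and -0.01 in the mutant, close to that of all genes. Averaged over both strains, 17 were called, 11 higher and 6 lower, beside 37.6% of all genes (18.3% higher and 19.3% lower).

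Upstream of AMPK, 3 of 6 genes were called in the averaged comparison, beside 37.6% of all genes. *mop-25.3*, which encodes a scaffold of the MO25 family that acts with LKB1 in mammals, rose by 0.51 in N2 (adjusted p = 0.00115 from limma) and by 0.38 in the mutant (adjusted p = 0.00769 from limma). Its relative *mop-25.1* rose by 0.21 over both strains (adjusted p = 0.0433 from limma). *ckk-1*, the calmodulin-dependent kinase kinase, was lower by a log2 difference of -0.34 over both strains (adjusted p = 0.00134 from limma). *par-4*, the LKB1 kinase itself and named here after its values were seen, was not called, at 0.25 in N2 (adjusted p = 0.120 from limma) and -0.04 in the mutant (adjusted p = 0.831 from limma). Its difference between the strains in starved worms was -0.33 (95% interval -0.57 to -0.09, adjusted p = 0.309 from limma).

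Of 5 kinases related to the alpha subunits, *pig-1*, the MELK kinase, was called in N2, at 0.42 (adjusted p = 0.00366 from limma), and over both strains, at 0.26 (adjusted p = 0.00427 from limma). *unc-82*, of the NUAK family, was called lower in N2, at -0.25 (adjusted p = 0.0488 from limma). The other 3 did not pass, and 0 of 5 passed in the mutant. Of all genes, 22.4% were called in N2, 37.6% over both strains, and 10.9% higher and 14.3% lower in the mutant.

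Of 16 genes that AMPK acts on or works with, 7 rose and 1 fell in the averaged comparison, beside 18.3% and 19.3% of all genes. *daf-16*, the FOXO transcription factor, went from a range of 10.86 to 10.95 to one of 11.33 to 11.49 in N2, and from 10.82 to 10.97 to 11.32 to 11.52 in the mutant. The groups did not overlap in either strain, and the mean rise was 0.56 (SE 0.0487, adjusted p = 5.32e-07 from limma). *crtc-1*, the coactivator of CREB that AMPK phosphorylates in the worm, rose by 0.33 in N2 and by 0.55 in the mutant (adjusted p = 0.00760 and 0.000170 from limma). Also called higher in the average of the strains were *sbp-1*, the SREBP orthologue, at 0.33, and *pod-2*, acetyl-CoA carboxylase, at 0.27. So were *unc-51*, the ULK1 orthologue, at 0.20, *hlh-30*, the TFEB orthologue, at 0.18, and *daf-15*, Raptor, at 0.17. *pod-2* passed in each strain, whereas *sbp-1*, *unc-51* and *hlh-30* did not pass in N2 and *daf-15* did not in the mutant. *tbc-7*, which encodes a Rab GTPase activating protein, was the one that fell, at -0.19. The median change of the 16 genes was 0.13, against -0.0035 over all genes.

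Of 7 enzymes of the adenylate and phosphagen pools, 4 fell and 1 rose in the averaged comparison, beside 19.3% and 18.3% of all genes. *argk-1*, an arginine kinase, went from between 5.77 and 6.28 to between 5.05 and 5.54 in N2, and from between 5.89 and 6.19 to between 5.099 and 5.44 in the mutant, with no overlap in either. Its change was -0.76 (SE 0.0950, adjusted p = 1.59e-05 from limma). The probe set is dim, with starved values below the array medians of 5.80 to 5.85. *W10C8.5* and *F32B5.1*, of the same family, were lower by -0.59 and -0.36, and *let-754*, an adenylate kinase, which turns pairs of ADP into ATP and AMP, by -0.41. The 1 gene that rose was *ampd-1*, AMP deaminase, at 0.25. Not called were *F46H5.3*, at 0.13 (adjusted p = 0.0966 from limma), and *ZC434.8*, at -0.15 (adjusted p = 0.204 from limma). The list's median change was -0.36.

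**Figure D5:**
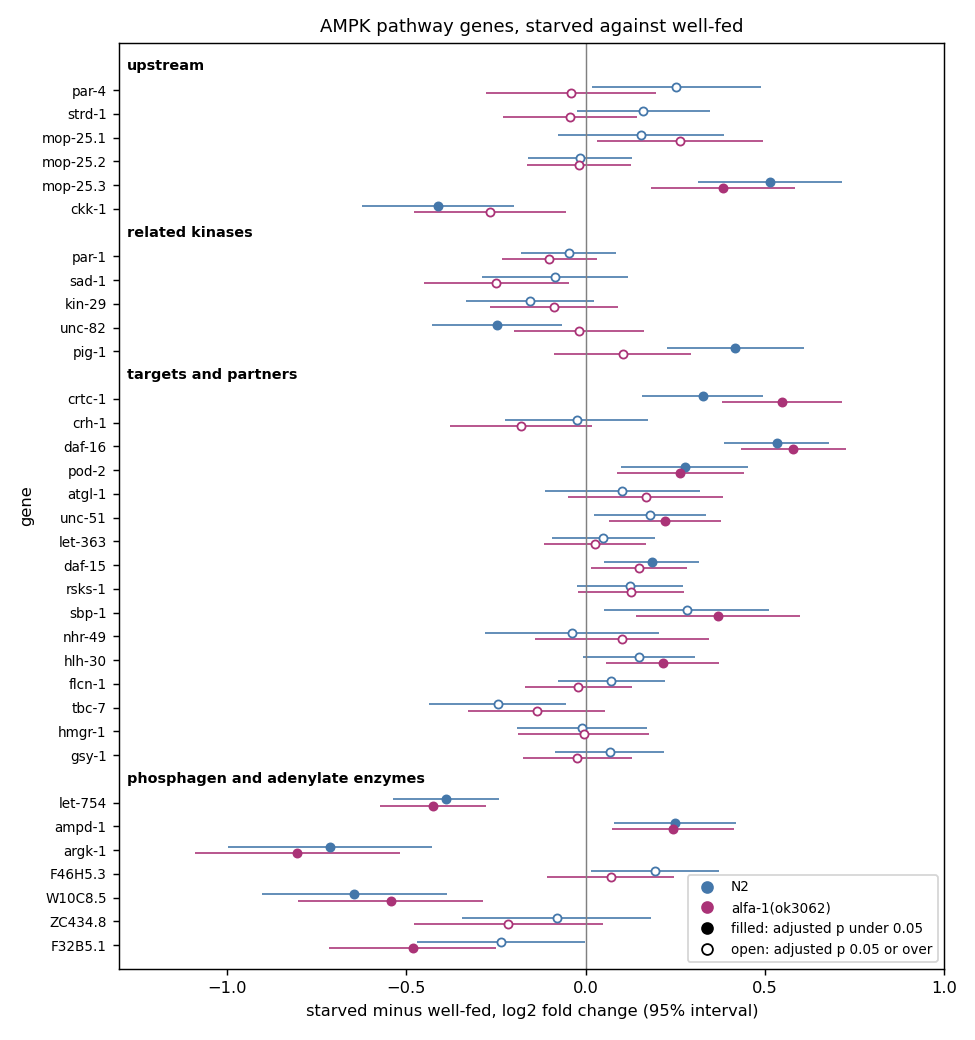
Starved minus well-fed log2 fold change (horizontal axis, with 95% intervals) of the 34 pathway genes (vertical axis, by list) in N2 and in *alfa-1(ok3062)*; filled symbols passed at an adjusted p under 0.05. The highest change is that of *daf-16* in the mutant, at 0.58, and the lowest that of *argk-1* in the mutant, at -0.80.

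Markers of tissues and stages moved with starvation too, and their counts stand beside 10.8% of all genes called higher and 11.6% lower in N2, and 10.9% and 14.3% in the mutant. Of 4 adult genes (*col-19*, *vit-2*, *vit-5* and *vit-6*) 3 rose in N2 and 2 in the mutant. *col-19* did not rise in the mutant, with means of 11.40 well-fed and 11.37 starved. The summed level of the 4 genes, on the log2 scale, went from between 13.65 and 13.88 to between 14.12 and 14.32 in N2. In the mutant it went from between 13.74 and 13.90 to between 13.95 and 14.25. Brighter probe sets weigh more in such a sum. Of 3 oocyte genes 2 rose in N2 and 1 in the mutant, with summed levels of 12.89 to 13.06 in well-fed N2, 13.25 to 13.49 in starved N2, 12.85 to 13.07 in the well-fed mutant and 13.02 to 13.20 in the starved mutant. Well-fed N2 means already ran from 11.41 (*col-19*) to 12.03 (*vit-5*) for the adult genes, and from 11.24 (*puf-5*) to 11.54 (*oma-1*) for the oocyte genes. Array medians were 5.80 to 5.85. Levels of different probe sets cannot be set against each other, and the stage of the worms was not tested. Of 3 hypodermis genes 2 fell in N2 and 1 in the mutant, and of 3 intestine genes 1 fell in N2 and 2 in the mutant. The intestine gene *elt-2* was not called. Its mean went the other way, from 8.61 to 8.77 in N2 and from 8.44 to 8.57 in the mutant. Of 5 sperm genes 0 were called in N2 and 3 fell in the mutant, and of 3 germ line genes 0 were called in either strain. Of 3 body wall muscle genes and of 3 neuronal genes, 1 each fell in N2 and 0 were called in the mutant. Their part in the changes of the AMPK genes was not tested.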

How the data were processed

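Whole-worm RNA of 16 samples was hybridised to Affymetrix C. elegans arrays, 4 samples for each strain and food condition, and groups were taken from the sample titles. One label field names strain IW314 for all samples, another names IW313 for the mutants, and the methods name RB2260. What the authors deposited is 1 log2 value for each probe set and array. RMA and Partek are named in the submitters' processing notes without a version, and no genome build is stated for the annotation. RMA normalizes the arrays to each other, which would remove a shift common to most genes. Values ran from 1.84 to 14.2 and array medians from 5.80 to 5.85. Scanner intensities were not used, so no signal can be set against background, and precision is limited by the number of arrays.

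Of 29317 probe sets, 25546 had 1 gene, 646 several and 3125 were not listed in the annotation. The brightest probe set was used for each of the 57 genes with several, which left 25478 genes, and the second probe set of *aakg-1* was fitted as well. Limma 3.58.1 in R 4.3.3 was fitted with 4 group means over all 16 arrays, with Benjamini-Hochberg adjustment over all genes. The comparisons were starvation in each strain, strain in each food condition, the interaction and both averaged effects. Exact permutation tests over samples were run for single genes and for 12 pairs of subunits. The fit was tested on simulated data. The members, the pathway and marker lists and the tests were chosen with earlier results of these data known. All 9 subunits are named, and of each pathway list the genes that passed. Alternatives were each array left out, replicate blocks, other normalizations, array weights, an intensity trend, every probe set tested, dim genes filtered out, the methods' t-test and a looser threshold. Replicate numbers did not pair the samples. There were 0 columns of values without a sample. No sequence is shown, since no sequence table was used here.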

Additional observations from a re-analysis of the deposited data

Results flagged for a closer look

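Of 44 groups of 4 arrays examined for a sample far from the others, 3 held one, and chance alone gives about 1 in 20. *aak-1* was at 9.04 in starved N2 replicate 3, above the other starved N2 arrays. That array also had the lowest weight of the 16 when arrays were weighted by how well they fit, at 0.338, and without it *aak-1* still rose in N2, as its log2 change lay between 0.29 and 0.37 with each array left out in turn. *aakg-5* was at 9.59 in well-fed *alfa-1(ok3062)* replicate 2, below the other arrays of its group. The second probe set of *aakg-1* was at 9.45 in well-fed *alfa-1(ok3062)* replicate 4, also below its group.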

How the results depend on the processing

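All 15 called changes of a member kept their direction in every alternative run, and 7 of their 408 values no longer passed. The count of members called on starvation in the mutant, 3, moved by over 1.5 times: it was 6 with cyclic loess normalization, 6 with array weights, 5 at an adjusted p under 0.1, and 3 to 5 with each array left out in turn, the 5 without starved N2 replicate 3. Without that array *aak-1* (adjusted p = 0.0491 from limma) and *aakb-2* (adjusted p = 0.0344 from limma) passed there, and *aak-1* also passed without starved mutant replicate 1 or 2. In N2 the count was 5 to 6 with each array left out, and 4 by the methods' t-test, where *aakg-3* and *aakb-2* were lost after Benjamini-Hochberg adjustment. In the mutant the methods' t-test called 4, with *aakg-3* lost (adjusted p = 0.0537) and *aakb-1* (0.038) and *aakb-2* (0.0147) gained. Over both strains the count was 6 with each array left out, and 7 with cyclic loess, an intensity trend, the filter on dim genes or an adjusted p under 0.1, the added gene being *aakb-1*. These counts leave out the second probe set of *aakg-1*, which passed in each strain and over both. The pairs of subunits that differed in their mean strain effect went from 0 to 1 after quantile normalization and to between 0 and 3 with each array left out, the 3 without starved N2 replicate 1 and 1 without starved mutant replicate 3. The pair *aak-1* and *aak-2* was among those that passed in each of these settings (adjusted p = 0.0441, 0.0473 and 0.0098 in the exact permutation test). With the replicate number as a block the members called were 6 in N2, 3 in the mutant, 6 over both strains and 0 in each strain comparison and in the interaction, as without it. For a check of pairing, the group mean of each gene was subtracted and samples were correlated across groups. What remained correlated between -0.472 and 0.149 in same-numbered samples. Of 16 samples, 2 correlated best with their own number, so the number is no pairing. No scaling moved the median of all genes by over 0.1.

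All 50 values that changed sign were of differences that had not passed, near 0. With each array left out, the log2 change on starvation ran from -0.046 to 0.019 for *aakg-1* in N2, from -0.061 to 0.019 for *aak-2* in the mutant and from -0.015 to 0.037 for *aak-2* over both strains. The strain difference in well-fed worms ran from -0.021 to 0.060 for *aakb-1*, from -0.062 to 0.088 for *aakg-3* and from -0.045 to 0.016 for *aakg-5*. In starved worms it ran from -0.046 to 0.051 for *aak-2*, from -0.16 to 0.0028 for *aakb-2*, from -0.044 to 0.020 for *aakg-1* and from -0.017 to 0.31 for *aakg-4*. Averaged over food it ran from -0.036 to 0.0043 for *aakb-1* and from -0.031 to 0.048 for *aakb-2*, and the interaction of *aakg-4* from -0.29 to 0.031. Median centring gave -0.0026 for *aak-2* over both strains and -0.0024 for the mean strain difference of *aakb-2*. Quantile normalization gave 0.0017 for *aak-2* in the mutant, 0.046 for *aakg-1* between starved strains and 0.0042 for the mean strain difference of *aakb-1*. Cyclic loess gave -0.0068 for *aak-2* over both strains, -0.0093 for *aak-2* in N2, 0.062 for *aakg-1* and 0.0039 for *aakb-1* between starved strains, 0.0032 for the mean strain difference of *aakb-1*, and interactions of 0.0050 for *aak-2* and 0.0014 for *aakb-1*. Array weights gave 0.024 for *aakb-2* between starved strains and 0.086 for the interaction of *aakg-4*. The cause of these changes was not tested.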

Other observations

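The genes whose pattern over the 16 arrays was most like that of each called subunit were found by the root mean square difference of log2 values after each gene was centred on its own mean. For *aakg-4* they were *clec-264*, *nas-9* and a gene known only by its sequence name, at 0.198, 0.211 and 0.222, against a spread of *aakg-4* about its own mean of 0.859. For *aakg-2* they were *F13B6.2*, *klp-3* and *unc-98*, at 0.0903, 0.0955 and 0.0987, against a spread of 0.349. For *aak-1* they were *rfc-3*, *zim-2* and *mfsd-13.1*, at 0.0725, 0.0756 and 0.0765. For *aakb-2* they were *sup-35*, *Y119D3B.14* and *gbas-1*, at 0.0638, 0.0692 and 0.0720. *aakg-3* was most like *kel-20*, *pkn-1* and *mak-2*, at 0.0857 to 0.109, and *aakg-5* most like *C25A1.1*, *cdc-14* and *zim-2*, at 0.0829 to 0.0921. The arrays share their normalization and no test was made of these likenesses, so that they are descriptions only.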
